A study of Mus musculus with 10 samples.

Results

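The cytochrome P450 enzymes measured here are the genes whose symbols are Cyp, a family number, a subfamily letter and a gene number. The array's annotation held 93 such symbols in 15 numbered families, and 90 of them had at least 1 probe set naming that symbol alone, out of 22180 genes measured in this way. Cyp2c67, Cyp4a10 and Cyp4a32 appeared only in probe sets that name several genes, so no value of their own can be given. Another 10 P450 symbols, such as Cyp51, the pseudogenes and names ending in a letter such as Cyp4a12a, lie outside the pattern. Expression was measured in 5 male FVB/NJ mice whose tracheas were collected 4 days after whole-body exposure to 235 ppm chlorine for 1 hr, and in 5 male FVB/NJ mice that received no treatment. The design gives 9 weeks as the age of the mice. From each mouse, tissue beneath the tracheal epithelium was taken by laser-capture microdissection from stained frozen sections, pooled over sections and hybridised to 1 array. Values are log2 intensities, where 1 unit is a 2-fold difference. The comparison asks which transcripts of the family differed in the airway wall at a time when fibrotic lesions develop, in 1 strain, 1 sex and at 1 time after exposure.

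P450 enzymes hold a haem iron that splits molecular oxygen and inserts 1 of its atoms into a substrate. Families with low numbers mostly act on foreign chemicals in the endoplasmic reticulum, family 4 hydroxylates fatty acids and eicosanoids, and the remaining families make or clear cholesterol products, steroid hormones, vitamin D and retinoic acid. In mouse airways the secretory club cells are known as the main site of foreign-chemical P450 enzymes, which is why inhaled compounds such as naphthalene are activated there.

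Several P450 transcripts were lower and a pair was higher in exposed mice, while most of the family did not pass the test. Of the 90 genes, 7 fell and 2 rose at an adjusted p under 0.05 (limma, Benjamini-Hochberg adjustment, 22180 genes tested). The genes that fell were Cyp2a5, Cyp2a4, Cyp2a12, Cyp2b10, Cyp2s1, Cyp3a13 and Cyp4b1, and those that rose were Cyp1b1 and Cyp7b1. Over all genes 10.8% were called, 5.85% higher and 4.97% lower, against 9 of the 90 P450 genes, 2.22% higher and 7.78% lower. The groups did not overlap for 9 P450 genes, 1 higher and 8 lower, and for 11.0% of all genes, 5.89% higher and 5.06% lower. The family was thus called about as often as genes at large. The median log2 difference was -0.066 over the P450 genes and -0.003 over all genes. For 77 of the 90 genes the difference was under 0.5 log2 units in size, and 10 differed by at least 1 unit. The mean over the 10 arrays lay above the median level of all genes for 21 P450 genes and not above it for 69, among them the called genes Cyp2a12 and Cyp3a13. No detection limit was at hand, so that a low value cannot be told from background. In pooled tissue, fewer cells of a type and less RNA per cell cannot be told apart.

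**Figure D1:**
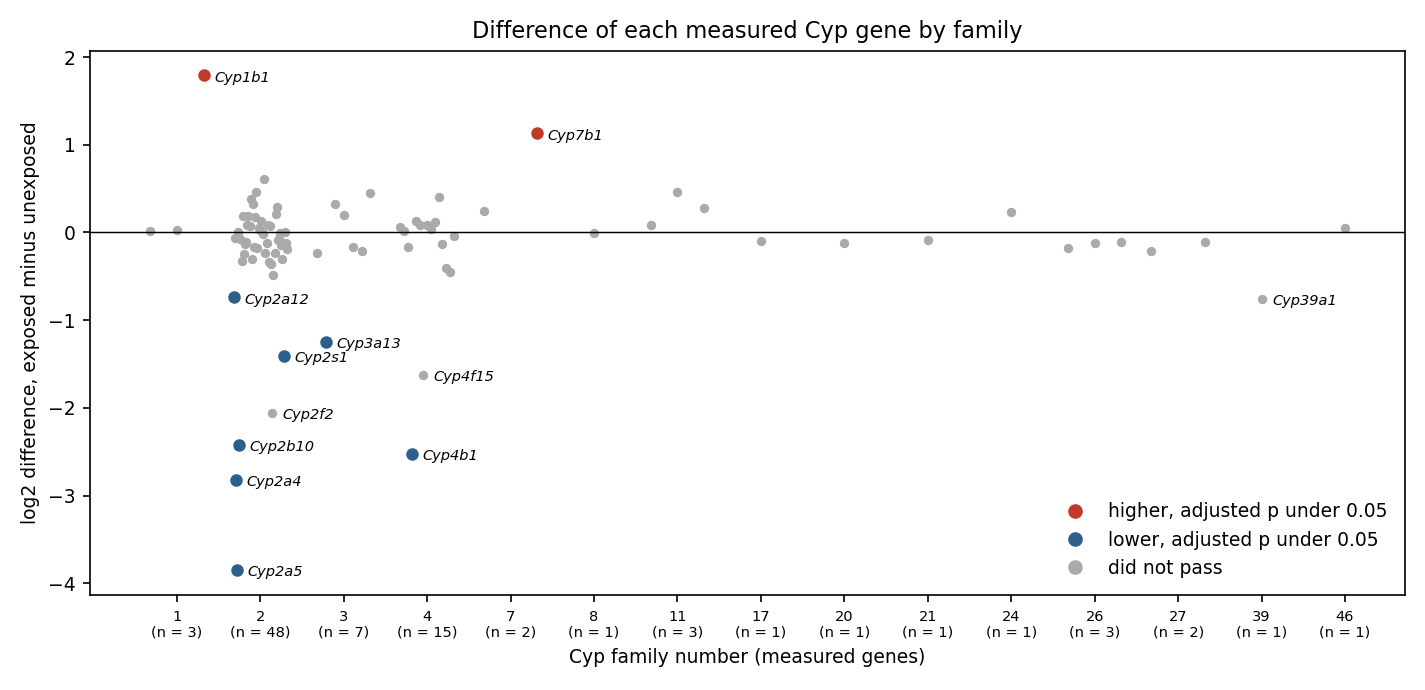
Log2 difference (exposed minus unexposed mice, n = 5 per group) of each of the 90 measured Cyp genes, grouped by family number, with 1 point per gene. Most points lie within 0.5 units of 0, Cyp1b1 (1.79) and Cyp7b1 (1.13) stand above, and the points far below 0 belong to families 2, 3 and 4, apart from Cyp39a1 (-0.76).

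The captured tissue carried transcripts of several cell types, and the mean of the airway secretory markers was lower in every exposed mouse than in any unexposed mouse. The mean level of 10 fibroblast markers was 9.94 to 10.43 in exposed mice, against 9.79 to 10.16 in the unexposed. Epithelial transcripts were also present, although the labels place the tissue below the epithelium. The mean of 12 secretory and club cell markers was 10.77, 10.19, 5.91, 9.24 and 9.56 in exposed mice 1 to 5, against 11.16 to 11.34 in unexposed mice. Of these, 4 fell (Bpifb1, Sftpd, Cldn10 and Chad) and 8 did not pass, among them Scgb1a1, the defining secretory product of club cells (log2 difference -2.15, SE 0.85, adjusted p = 0.14). Exposed mouse 3 was the lowest exposed mouse for Bpifb1, Sftpd and Scgb1a1 but the highest for Cldn10 and Chad. Chad, also known as a cartilage protein, had 11.94, 11.25, 12.11, 10.89 and 10.41 in exposed mice, and all 10 cartilage markers likewise had exposed mouse 3 highest and exposed mouse 5 lowest. Of 9 ciliated cell markers 4 fell (means 4.89 to 8.24 in exposed mice and 8.22 to 8.73 in the unexposed), and Foxj1 did not pass (-1.37, adjusted p = 0.127). Of 10 basal cell markers 4 rose and 1 fell (exposed means 7.38 to 8.48, unexposed 7.39 to 7.70), and none of 8 shared epithelial markers passed (exposed 7.73 to 9.00, unexposed 8.39 to 8.86), Epcam among them (-0.28, adjusted p = 0.592). Of 9 gland markers 1 fell (exposed 5.04 to 6.31, unexposed 6.36 to 6.6). Of 11 macrophage markers 8 rose (exposed 7.80 to 8.60, unexposed 7.0 to 7.55), and of 10 neutrophil markers 2 rose (exposed 4.52 to 5.27, unexposed 3.92 to 4.24). Among the other lists, 3 fibroblast markers rose and 1 fell, 1 of 9 endothelial markers rose, 3 of 10 cartilage markers fell, and none of 8 smooth muscle, 8 hepatocyte or 7 adipocyte markers passed. Hepatocyte markers averaged 4.34 to 4.49 in exposed mice, against 4.32 to 4.58 in the unexposed. Of 7 markers of steroid-making cells, 1 fell (exposed 4.16 to 4.44, unexposed 4.21 to 4.57). Several marker calls were lost when 1 mouse was left out. Of the 10 such fits, Dlk2 (basal, the one that fell) lost its call in 9 (adjusted p 0.0136 to 0.111), Chad in 8 (0.0154 to 0.107), the ciliated marker Hydin in 8 (0.00447 to 0.0798) and the endothelial marker Tek in 8 (0.0143 to 0.114). The cartilage marker Matn3 lost it in 6 (0.0101 to 0.0652), the macrophage marker Adgre1 in 5 (0.0152 to 0.0716), the neutrophil marker S100a9 in 4 (0.00454 to 0.0624), and the fibroblast markers Pdgfra in 2 (0.0151 to 0.054) and Col1a1 in 1 (0.00486 to 0.0501). Whether these cell type markers account for any P450 difference was not tested.

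**Figure D2:**
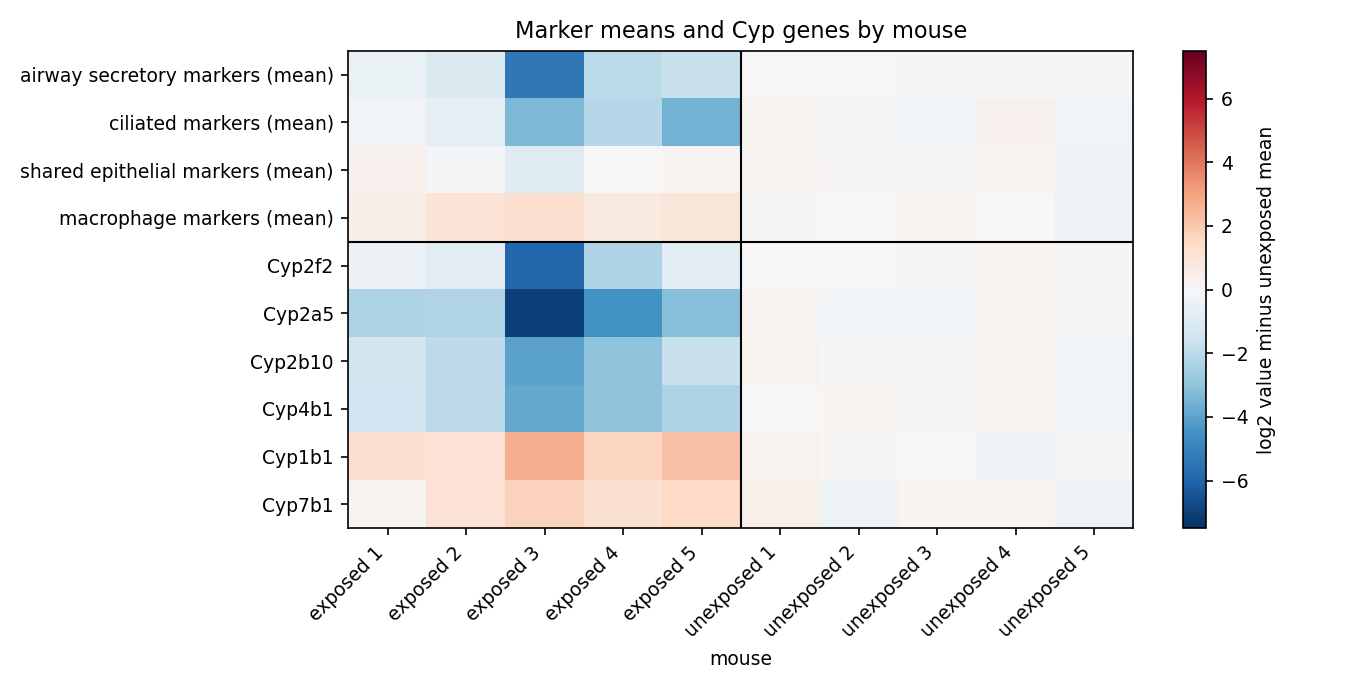
Log2 value minus the mean of the unexposed mice, for the means of 4 marker lists (above the line) and for 6 Cyp genes (below it), with a column per mouse and exposed mice on the left. Exposed mouse 3 has the deepest colour for the secretory markers (mean 5.91), for Cyp2f2 (5.80) and for Cyp2a5 (1.58), and also the highest Cyp1b1 (8.22).

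The deepest falls were in subfamily 2a, whose mouse members oxidise coumarin, nicotine and steroids. Cyp2a5, the mouse coumarin hydroxylase, had log2 values of 6.30, 6.34, 1.58, 4.07 and 5.38 in exposed mice 1 to 5, against 8.80, 8.41, 8.41, 8.80 and 8.51 in unexposed mice 1 to 5. All exposed mice lay below all unexposed mice, mouse 3 by far the lowest, and the exposed values spread over 4.76 units against 0.39 in unexposed mice. The difference was -3.85 (SE 0.75, adjusted p = 0.0072, n = 5 per group), so that the level was 14.4-fold higher in unexposed mice, and it was -3.06 without exposed mouse 3. Cyp2a4, a steroid hydroxylase of mice, had 6.53, 7.0, 1.86, 5.41 and 6.64 in exposed mice, against 8.42, 8.00, 8.26, 8.31 and 8.55 in unexposed mice. The groups were again apart, with the same mouse lowest. The difference was -2.82 (SE 0.80, adjusted p = 0.0438). It became -1.91 without exposed mouse 3, and the call was lost without exposed mouse 4 or any of the 5 unexposed mice (adjusted p 0.00141 to 0.0895 over the fits that leave out 1 mouse, highest without unexposed mouse 1) and under trend and robust settings (adjusted p = 0.0887).

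Cyp2a12, which hydroxylates steroids and bile acids in mice, differed less. It had 3.74, 4.43, 3.69, 3.12 and 3.46 in exposed mice, against 4.55, 4.14, 4.68, 4.58 and 4.19 in unexposed mice, and the groups overlapped through exposed mouse 2. Its difference of -0.74 (SE 0.21, adjusted p = 0.0476) held its call in 1 of the 10 fits that leave out 1 mouse, the fit without exposed mouse 2 (adjusted p 0.00697 to 0.107), and lost it under renewed quantile normalization, array weights and the mouse number as a block. The remaining measured gene of the subfamily, Cyp2a22, did not pass (-0.06, SE 0.16, named because it completes the subfamily). The probes of these paralogs may not fully separate their transcripts, so that the values of Cyp2a4 and Cyp2a5 in particular are uncertain as values of 1 gene each.

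The likeness of Cyp2a5 and Cyp2a4 extends to the DNA before their starts. The windows below are the 250 bases before each RefSeq start on the plus strand of chromosome 7 (build GRCm38.p6, chr7:26835089-26835338 for Cyp2a5 and chr7:26306942-26307191 for Cyp2a4), shown because the pair fell together, with the TATA box core TATAA in capitals.
Cyp2a5: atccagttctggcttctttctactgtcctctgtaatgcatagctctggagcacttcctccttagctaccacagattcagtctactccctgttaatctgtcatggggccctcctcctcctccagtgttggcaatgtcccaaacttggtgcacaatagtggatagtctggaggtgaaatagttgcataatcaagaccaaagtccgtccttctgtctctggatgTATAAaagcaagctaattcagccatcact
Cyp2a4: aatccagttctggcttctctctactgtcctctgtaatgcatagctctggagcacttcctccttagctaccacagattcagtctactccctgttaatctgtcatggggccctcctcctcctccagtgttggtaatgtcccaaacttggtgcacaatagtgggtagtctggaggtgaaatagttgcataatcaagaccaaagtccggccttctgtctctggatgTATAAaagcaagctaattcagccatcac
Of 251 aligned columns 245 held the same base, an identity of 97.6%. Identity with the windows of Cyp2a12 and Cyp2a22 was not computed, and whether this likeness bears on the falls was not tested. The core lay 29 bases before the start of Cyp2a5 and 28 before that of Cyp2a4. Searched on both strands, TATAA occurred in 22.8% of 32851 such windows of all genes and in 36 of the 72 P450 genes with a window. The former is a share of windows, while a P450 gene counted if any of its windows held the core, so the shares are not directly comparable. Among the 8 called genes with a window, Cyp2a5, Cyp2a4, Cyp2a12 and Cyp4b1 held it.

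Other foreign-chemical enzymes of family 2 fell as well. Cyp2b10, the phenobarbital-inducible enzyme of mouse liver that is also made in lung, had 8.74, 8.19, 6.11, 7.10 and 8.49 in exposed mice, against 10.40, 10.05, 10.02, 10.33 and 9.93 in unexposed mice. Every exposed value lay below every unexposed one. The difference was -2.42 (SE 0.42, adjusted p = 0.00391), or 5.35-fold higher in unexposed mice, and it held in all 10 fits that leave out 1 mouse. Cyp2s1, an enzyme of surface epithelia outside the liver, had 7.16, 6.57, 5.62, 6.13 and 5.62 in exposed mice, against 7.73, 7.49, 7.43, 7.91 and 7.58 in unexposed mice. The groups did not overlap, exposed mouse 1 coming nearest to the unexposed mice. Its difference was -1.41 (SE 0.27, adjusted p = 0.00618), 2.65-fold higher in unexposed mice.

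Cyp2f2, the club cell enzyme that activates naphthalene in mice, had a large difference that did not pass. It had 11.24, 10.84, 5.80, 9.34 and 10.85 in exposed mice, against 11.72, 11.64, 11.57, 11.83 and 11.60 in unexposed mice. The groups did not overlap, but exposed mouse 3 stood far below the others, and the SD was 2.25 in exposed against 0.10 in unexposed mice. The difference was -2.06 (SE 0.85, 95% interval -3.91 to -0.21, adjusted p = 0.156), alike in both of its probe sets (-2.06 each). Without exposed mouse 3 it was -1.11 and passed (adjusted p = 0.047), as it did without exposed mice 1 and 3 (-1.33, adjusted p = 0.0194). Over the fits that leave out 1 mouse its adjusted p ranged between 0.047 and 0.25. Cyp2e1, which oxidises ethanol, had 8.84, 8.07, 9.66, 8.40 and 10.43 in exposed mice, against 9.20, 9.09, 9.44, 9.54 and 9.92 in unexposed mice. Here exposed mice lay on both sides of the unexposed ones, with mice 3 and 5 the highest of their group (difference -0.36, SE 0.39, adjusted p = 0.638).

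**Figure D3:**
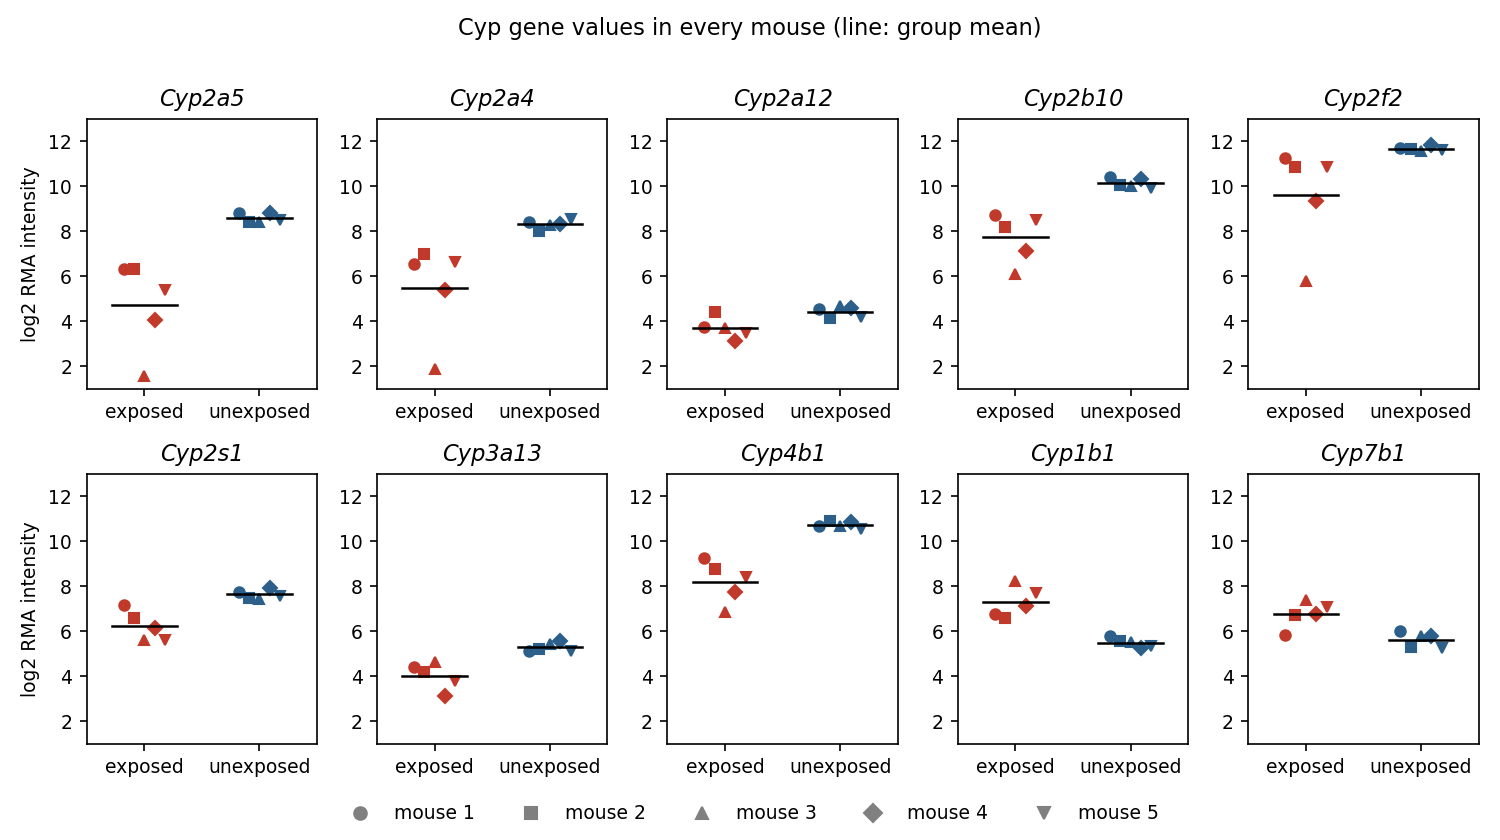
Log2 RMA intensity of 10 Cyp genes in every mouse, exposed mice left (red) and unexposed mice right (blue), with a symbol per mouse number and a line at the group mean. Exposed values of Cyp2a5 (1.58 to 6.34) and Cyp4b1 (6.86 to 9.27) lie below all unexposed values and those of Cyp1b1 (6.6 to 8.22) above them, while unexposed mice stay close together.

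The genes of family 2 that fell all lie on chromosome 7. Of the 15 measured family 2 genes on that chromosome 5 fell, and of the 33 on other chromosomes none did, beside 4.97% of all genes called lower. The level was not above the median of all genes for 7 of the 15 and for 30 of the 33, and the difference between these counts was not tested. In RefSeq order, 13 of the measured genes run in a series starting with Cyp2s1 and ending with Cyp2t4, with 4 pseudogenes among them. Neighbours in this stretch behaved differently. Cyp2b10 fell, whereas Cyp2b13, Cyp2b9, Cyp2b23 and Cyp2b19 had differences of -0.07, -0.25, 0.19 and -0.32, and Cyp2g1, Cyp2a22 and Cyp2t4 had -0.48, -0.06 and 0.01, none passing. The SD was wider in exposed than in unexposed mice for all 13 genes of the stretch, against 60.6% of all genes. Cyp2b19, an arachidonic acid epoxygenase of mouse skin, had 5.05 in exposed mouse 4 and 3.30 to 3.79 in the other exposed mice, against 3.85 to 4.37 in unexposed mice, and without that mouse its difference of -0.62 passed (adjusted p = 0.0302, with 0.0302 to 0.763 over the mice left out). The subfamilies on other chromosomes, 14 genes of 2c, 9 of 2d and 7 of 2j, held no call, with median differences of 0.057, 0.012 and -0.071. Among the 33 family 2 genes on other chromosomes, 4 had an unadjusted limma p under 0.05, as had 5408 of all 22180 genes. Cyp2c40, Cyp2c66 and Cyp2d13 were higher in exposed mice (0.38, 0.46 and 0.61), and Cyp2d40 was lower (-0.34). Cyp2d13, singled out after its values were seen, had 4.13, 4.21, 3.91, 4.33 and 4.16 in exposed mice, against 3.38, 4.09, 3.68, 3.60 and 2.96 in unexposed mice. The groups overlapped through unexposed mouse 2. Its difference of 0.61 (SE 0.18, adjusted p = 0.0524) passed with array weights (0.0412), without exposed mouse 3 (0.0485) and without unexposed mouse 2 (0.0154), with adjusted p up to 0.118 over the mice left out. In subfamily 2j, the epoxygenase genes Cyp2j6 and Cyp2j9 differed by -0.07 (95% interval -0.34 to 0.20) and -0.14 (-0.58 to 0.30). Cyp2r1, a vitamin D 25-hydroxylase outside the stretch on chromosome 7, differed by -0.30 (-0.60 to 0.01), and the fatty acid enzyme Cyp2u1 by -0.12 (-0.46 to 0.22).

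**Figure D4:**
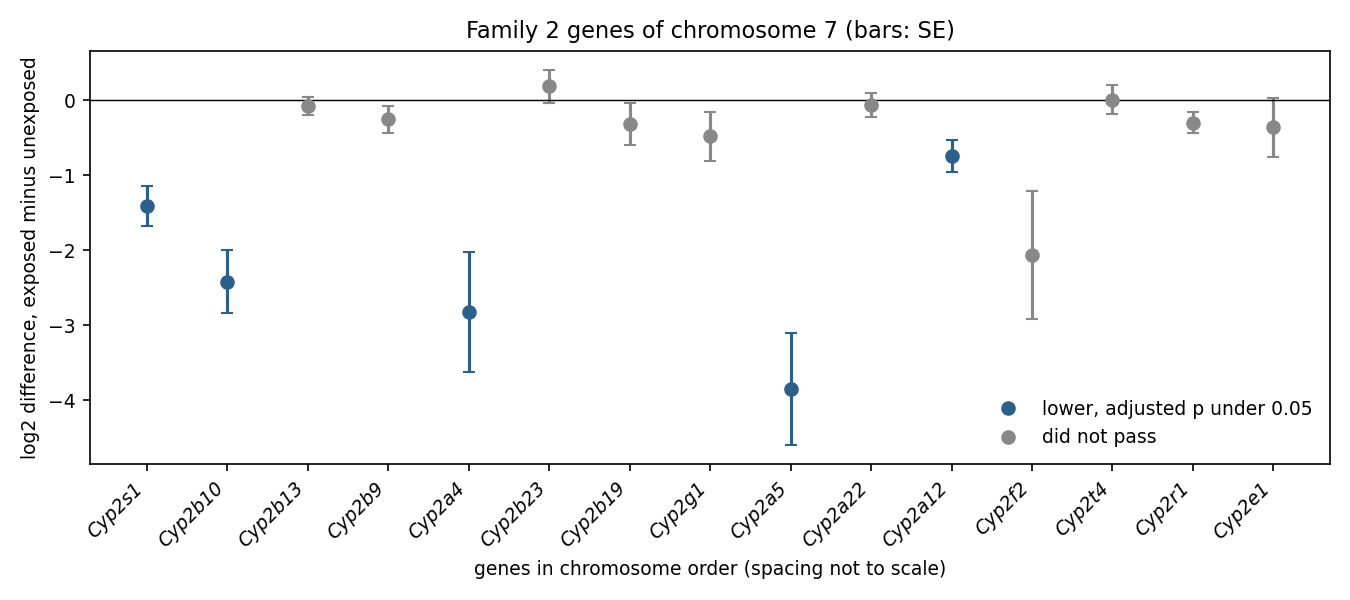
Log2 difference (exposed minus unexposed mice, bars are SE, n = 5 per group) of the 15 measured family 2 genes of chromosome 7, placed in their order on the chromosome without scale. The 5 genes that fell are interspersed with genes near 0, such as Cyp2b13 (-0.07) between Cyp2b10 (-2.42) and Cyp2a4 (-2.82).

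In families 3 and 4, 1 gene each fell, of 7 and 15 measured, beside 4.97% of all genes called lower. Cyp3a13, a member of the subfamily that oxidises drugs and steroids, had 4.40, 4.17, 4.64, 3.14 and 3.77 in exposed mice, against 5.1, 5.21, 5.43, 5.54 and 5.11 in unexposed mice. The groups did not overlap, and exposed mouse 4 was the lowest (difference -1.25, SE 0.24, adjusted p = 0.00692). The other 6 genes of family 3 did not pass, among them Cyp3a11, the main form in mouse liver (-0.23, 95% interval -0.52 to 0.05). Its value came from a probe set naming Cyp3a11 alone, while 2 further probe sets name it with Cyp3a41a, Cyp3a41b and Cyp3a44. Cyp4b1, a lung-rich enzyme that hydroxylates fatty acids and activates furans, had 9.27, 8.74, 6.86, 7.72 and 8.41 in exposed mice, against 10.69, 10.89, 10.65, 10.87 and 10.52 in unexposed mice. All exposed values were below all unexposed values. It had the smallest adjusted p of the family (difference -2.52, SE 0.36, adjusted p = 0.00116), with a level 5.74-fold higher in unexposed mice.

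The rest of family 4 held no call. Cyp4f15, singled out after its values were seen, had 6.64, 6.50, 2.61, 5.81 and 5.44 in exposed mice, against 7.15, 6.53, 7.09, 7.57 and 6.76 in unexposed mice. Exposed mouse 1 lay within the unexposed range and mouse 3 far below it (difference -1.62, SE 0.63, adjusted p = 0.136, or -0.92 without exposed mouse 3). None of the 10 fits that leave out 1 mouse passed (adjusted p 0.0557 to 0.247), while the fit without exposed mice 1 and 3 did (-1.10, adjusted p = 0.0271). Cyp4v3, whose human counterpart hydroxylates fatty acids, had 6.71, 6.92, 7.06, 6.18 and 6.63 in exposed mice, against 7.29, 7.25, 7.07, 7.21 and 6.93 in unexposed mice. Exposed mice were mostly lower but the groups overlapped (difference -0.45, SE 0.15, adjusted p = 0.0904, with 0.0409 to 0.178 over the mice left out). It passed without exposed mouse 3 (-0.54, adjusted p = 0.0409). Cyp4f13 (0.13, 95% interval -0.27 to 0.52) and Cyp4f18, a leukotriene hydroxylase of mouse neutrophils (0.12, -0.32 to 0.55), did not pass.

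The genes that rose were an oestrogen and hydrocarbon oxidase and an oxysterol hydroxylase. Cyp1b1, which oxidises oestrogens and polycyclic hydrocarbons and is known to be made in mesenchymal cells, had 6.78, 6.6, 8.22, 7.11 and 7.70 in exposed mice, against 5.78, 5.56, 5.51, 5.25 and 5.36 in unexposed mice. Every exposed value lay above every unexposed one, and exposed mouse 3 was the highest. The difference was 1.79 (SE 0.27, adjusted p = 0.00164), a 3.46-fold higher level, and it passed in all 10 fits that leave out 1 mouse. Cyp7b1, an oxysterol hydroxylase that clears side-chain hydroxylated cholesterol, had 5.82, 6.73, 7.37, 6.77 and 7.09 in exposed mice, against 6.01, 5.29, 5.78, 5.78 and 5.24 in unexposed mice. Exposed mice 2 to 5 lay above all unexposed mice and exposed mouse 1 among them. The difference was 1.13 (SE 0.26, adjusted p = 0.0176), or 2.20-fold. Exposed mouse 3 had the highest value of its group for both genes and the lowest for 5 of the 7 genes that fell.

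The other genes of family 1, the classical targets of the aryl hydrocarbon receptor, did not pass the test. Cyp1a1 had 4.31, 4.54, 4.97, 3.99 and 4.38 in exposed mice, against 4.17, 4.62, 4.62, 3.99 and 4.68 in unexposed mice. The groups covered nearly the same range (difference 0.02, 95% interval -0.40 to 0.44, adjusted p = 0.967). Cyp1a2 differed by 0.03 (-0.26 to 0.33). The windows before the RefSeq starts of Cyp1b1 (chr17:79715062-79715311, minus strand) and Cyp1a1 (chr9:57697363-57697612, plus strand) of build GRCm38.p6 are shown because both are textbook targets of that receptor. Capitals mark the core of its binding element, GCGTG or CACGC on the other strand, and the TATA box core TATAA.
Cyp1b1: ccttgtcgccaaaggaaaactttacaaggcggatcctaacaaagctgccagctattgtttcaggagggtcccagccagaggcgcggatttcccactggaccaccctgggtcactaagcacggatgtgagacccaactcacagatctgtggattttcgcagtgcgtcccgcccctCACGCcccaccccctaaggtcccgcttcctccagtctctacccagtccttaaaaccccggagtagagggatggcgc
Cyp1a1: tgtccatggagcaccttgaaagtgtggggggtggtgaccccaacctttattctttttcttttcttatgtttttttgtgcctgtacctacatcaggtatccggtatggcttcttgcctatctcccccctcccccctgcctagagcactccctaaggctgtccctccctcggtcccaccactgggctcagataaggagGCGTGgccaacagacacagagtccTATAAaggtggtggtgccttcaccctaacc
The receptor core lay 76 bases before the start of Cyp1b1 and 54 before that of Cyp1a1, and TATAA was found in the Cyp1a1 window, 30 bases before the start. Searched on both strands of the same 250 bases, the core occurred in 28.2% of the windows of all genes and in 15 of 72 P450 genes, among the called genes in Cyp1b1 and Cyp2b10. Here too a share of windows stands beside a count of genes, and the shares are not directly comparable. Both motifs were present in 1199 windows.

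Among the 16 P450 genes of sterol, steroid hormone, vitamin D and retinoic acid metabolism, Cyp7b1 was the only one called. In comparison, 10.8% of all genes were called in either direction. Cyp39a1, which hydroxylates the brain-derived oxysterol 24-hydroxycholesterol, had 7.48, 7.46, 6.56, 6.30 and 7.44 in exposed mice, against 7.89, 7.66, 7.79, 7.90 and 7.80 in unexposed mice. The groups did not overlap, with exposed mice 3 and 4 the lowest. Its difference of -0.76 (SE 0.23) missed the threshold (adjusted p = 0.0557) and passed it without exposed mouse 1 or 2 (0.0327 to 0.114 over the mice left out), under renewed quantile normalization, under trend and robust settings and when dim genes were left out. Cyp27a1, the sterol 27-hydroxylase, differed by -0.21 (95% interval -0.53 to 0.11), Cyp46a1, the sterol 24-hydroxylase, by 0.05 (-0.29 to 0.39), and the bile acid 12-hydroxylase Cyp8b1 by -0.01 (-0.39 to 0.36). None of the 5 steroid hormone genes passed. They included Cyp11a1, which cleaves the cholesterol side chain (0.09, -0.18 to 0.37), Cyp17a1 (-0.10, -0.49 to 0.29), Cyp21a1 (-0.09, -0.44 to 0.25) and Cyp11b1 (0.46, 0.05 to 0.87, adjusted p = 0.148). Their means lay between 3.43 and 4.42 in exposed mice. Cyp24a1, which clears active vitamin D, differed by 0.23 (-0.03 to 0.49), and Cyp27b1, which makes it, by -0.11 (-0.34 to 0.12). The retinoic acid hydroxylases Cyp26a1 (-0.18, -0.55 to 0.20) and Cyp26b1 (-0.12, -0.60 to 0.36) and the orphan Cyp20a1 (-0.12, -0.36 to 0.12) did not pass either.

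Genes that serve the P450 system changed in part, beside 10.8% of all genes called in either direction. Of 9 measured electron donors and their helpers 3 fell and none rose, with a median difference of -0.13. Cytochrome b5 (Cyb5a), which passes electrons to P450 enzymes of the endoplasmic reticulum, fell by 0.98 (SE 0.16, adjusted p = 0.00261). The haem-binding membrane protein Pgrmc1 fell by 1.05 (SE 0.17, adjusted p = 0.00206). The mitochondrial donor Fdx1 fell by 0.40 (SE 0.10, adjusted p = 0.0282) and lost its call in 6 of the 10 fits that leave out 1 mouse (adjusted p 0.0275 to 0.0695). The reductase gene Por was not analysed here. Of 11 haem genes 2 fell, led by Alas1, the rate-limiting enzyme of haem synthesis outside red cells. Alas1 averaged 8.48 ± 0.89 in exposed and 10.41 ± 0.17 in unexposed mice (SD, n = 5 each), with no overlap (difference -1.92, SE 0.34, adjusted p = 0.00438). The biliverdin reductase Blvrb fell by 0.41, and Hmox1, which breaks haem down, did not pass (0.11, adjusted p = 0.798).

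**Figure D5:**
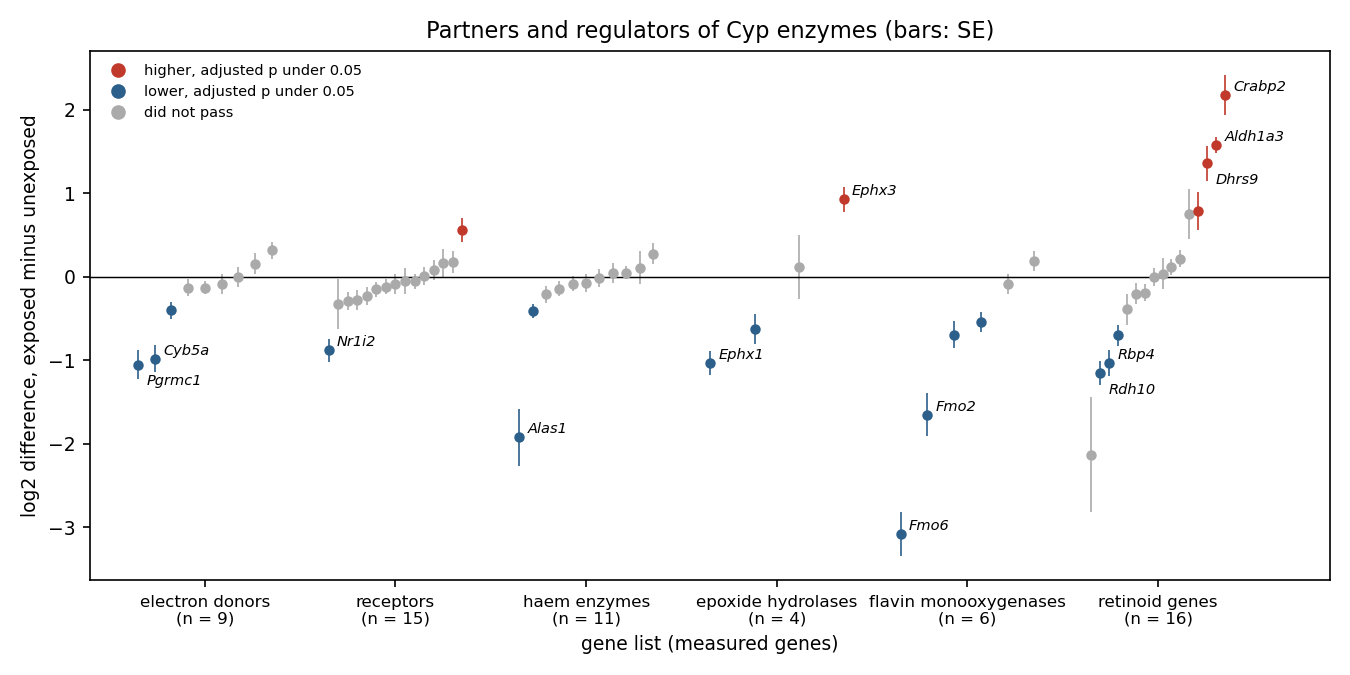
Log2 difference (exposed minus unexposed mice, bars are SE, n = 5 per group) of the measured genes of 6 lists tied to P450 function, with 1 point per gene. Alas1 (-1.92) and Fmo6 (-3.08) lie far below 0 and Crabp2 (2.18) far above, while most genes of the receptor list lie close to 0.

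Among 15 genes listed as receptors that control P450 genes, or as their partners, repressors or targets, 1 rose and 1 fell. Over all genes 10.8% were called in either direction. The pregnane X receptor Nr1i2, a regulator of subfamilies 2b and 3a, averaged 3.78 ± 0.24 in exposed and 4.66 ± 0.23 in unexposed mice (SD, n = 5 each), a low level in both groups, and fell by 0.88 (SE 0.14, adjusted p = 0.00256). Nr1i3, a further receptor of this list, averaged 4.74 in exposed and 4.67 in unexposed mice. It did not pass (0.08, SE 0.12, adjusted p = 0.755). The oxysterol receptor Nr1h3 rose (0.56, SE 0.14, adjusted p = 0.0277) and lost its call in 7 of the 10 fits that leave out 1 mouse (adjusted p 0.00832 to 0.0689). The aryl hydrocarbon receptor Ahr (-0.08, adjusted p = 0.758), its repressor Ahrr (0.18, adjusted p = 0.455) and its target Tiparp (0.17, adjusted p = 0.599) did not pass. Of 4 epoxide hydrolases, which open the epoxides that P450 enzymes form, the microsomal Ephx1 fell by 1.03 (SE 0.14, adjusted p = 0.000989), Ephx4 fell by 0.62 and Ephx3 rose (0.93, SE 0.15, adjusted p = 0.00196). Ephx4 lost its call in 7 of the 10 fits (adjusted p 0.0172 to 0.112).

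Retinoid genes changed in both directions although the Cyp26 genes did not pass. Of 16 measured, 4 rose and 3 fell. The retinaldehyde dehydrogenase Aldh1a3 rose (1.58, SE 0.10, adjusted p = 1.88e-05). Its brighter relative Aldh1a1 averaged 10.33 ± 1.84 in exposed and 12.46 ± 0.08 in unexposed mice (SD), with no overlap. It did not pass (-2.13, SE 0.69, adjusted p = 0.075), and neither did Aldh1a2 (0.75, adjusted p = 0.141). The retinoic acid binding protein Crabp2 (2.18), the dehydrogenase Dhrs9 (1.36) and Crabp1 (0.79, a call lost in 8 of the 10 fits, adjusted p 0.0217 to 0.107) also rose. The retinol dehydrogenase Rdh10 fell by 1.15 (SE 0.14, adjusted p = 0.000444), Rbp4 fell by 1.03 and the receptor Rarb fell by 0.70. Of 6 flavin monooxygenases, haem-free enzymes that share substrates with P450 enzymes, 4 fell and none rose. Fmo6 averaged 4.70 ± 0.28 in exposed and 7.78 ± 0.61 in unexposed mice (SD, n = 5 each; difference -3.08, SE 0.26, adjusted p = 5.45e-05), and Fmo2, the lung form, averaged 8.85 ± 0.65 in exposed and 10.50 ± 0.18 in unexposed mice (difference -1.65, adjusted p = 0.00207). Fmo1 fell by 0.69 (adjusted p = 0.0183) and Fmo5 fell by 0.54 (adjusted p = 0.0173).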

How the data were processed

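Per the labels' protocols, RNA was extracted with PicoPure reagents and labelled by the Affymetrix WT Plus procedure. The deposited values are log2 intensities per probe set, made by the authors with Partek 6.6 and RMA (robust multi-array averaging), as the submitters' processing notes list them. Their range gave the log base. The settings of RMA are not stated, and scanner files were not used here. Array medians were 5.10 to 5.18, and the number of arrays limits the precision. The table held 41345 probe sets: 23521 named 1 gene, 1814 several, and 16010 were unlisted. Names come from the platform annotation; 0 symbols changed against RefSeq (GRCm38.p6). A gene's value was the mean of its probe sets naming it alone; 4 P450 genes had more than 1. Exposed minus unexposed differences came from limma 3.58.1 under R 4.3.3 (lmFit, eBayes, no block, two-sided), with Benjamini-Hochberg adjustment over 22180 genes and a threshold of 0.05. The fit was tried on simulated data in which both groups had the spread of the unexposed mice. Such a trial cannot show how calls behave for genes that spread more widely in exposed mice, such as Cyp2f2. SE and 95% intervals are the moderated ones.

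The members and lists were chosen with earlier results of these data known. Named P450 genes were all called ones, 32 measured of 34 listed for their roles (Cyp19a1 and Cyp4a12a were not analysed here), and the smallest p of families with no call. Cyp4f15, Cyp2d13, Cyp2c40, Cyp2c66, Cyp2d40 and the chromosome 7 neighbours were added after their values were seen. Called genes of the pathway and secretory lists were named, with Ahr, Cyp51, Scgb1a1, Foxj1 and Epcam. Called genes of the other marker lists are given as counts, with those lost when 1 mouse was left out named. Hmox1, Ahrr, Tiparp, Nr1i3, Aldh1a1, Aldh1a2, Il1a, Il1b, Tnf and Ifng were added after their values were seen. Alternatives were other scalings, a filter on dim genes, the brightest probe set, array weights, trend and robust settings, mice left out, the mouse number as a block, stricter thresholds and probe sets naming several genes. Upstream windows are RefSeq's 250 bases before a start; the rule allowed a pair with a motif, and Cyp2a5 and Cyp2a4 were added after their values were seen. Software for tables was pandas 2.3.3 (Python 3.11.15); matplotlib 3.10.9 drew the figures.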

Additional observations from a re-analysis of the deposited data

Results flagged for a closer look

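In exposed mice, Cyp2b19 had 1 value far from the others: exposed mouse 4 stood at a log2 value of 5.05, the next highest exposed mouse at 3.79, and this gap made up 0.724 of the group's whole range. It was the only such value among 70 groups of 5 mice checked over the 35 P450 genes named by rule, where chance alone gives about 1 in 20. The cut-off was a gap of 0.71 of the range. Exposed mouse 3 did not exceed it in any of these genes, although it stood far below the others for Cyp2f2. Cyp4f15, added later, was not checked.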

How the results depend on the processing

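With 1 mouse left out, 5 to 8 P450 genes were lower and 2 to 3 higher, against 7 and 2 with all mice. The fits with 5 lower genes left out an unexposed mouse, and without exposed mice 1 and 3 there were 9. At an adjusted p under 0.01, 1 gene was higher (Cyp1b1) and 5 were lower. Of 647 values of named P450 genes under the alternatives, 617 kept their side of the threshold, 20 lost a call (Cyp2a4 and Cyp2a12), 10 gained one, and 0 changed sign with a call. Genes removed by the filter on dim genes, the called Cyp2a12 and Cyp3a13 among them, have no value there and are not counted. Over all genes, 725 were lower without unexposed mouse 1 and 723 without unexposed mouse 4, against 1102.

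With the mouse number as a replicate block, 2 P450 genes were higher and 6 lower, Cyp2a12 losing its call (adjusted p = 0.0933). Deviations of same-numbered mice correlated at -0.049 to 0.125 over genes, and only exposed mouse 1 was best matched by its own number. Such correlations cannot tell whether same-numbered mice were handled together.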

Other observations

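P450 genes outside the numbered pattern did not pass: Cyp51, which demethylates sterols (0.18, SE 0.17), the prostacyclin synthase Ptgis (0.28) and the thromboxane synthase Tbxas1 (0.46). Of 6 measured genes listed as UDP-glucuronosyltransferases, the 5 of subfamily Ugt2b did not pass, and Ugt8a, which carries that family name but makes galactosylceramide, fell by 1.24 (SE 0.20, limma adjusted p = 0.00258).

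In inflamed liver, certain cytokines and acute-phase proteins are known to accompany lower P450 transcripts. Among 11 genes of such proteins and of cytokine signalling, 4 rose and none fell. The cytokine genes Il1b (0.73, limma adjusted p = 0.249), Il1a (0.14, adjusted p = 0.808), Tnf (-0.32, adjusted p = 0.391) and Ifng (0.04, adjusted p = 0.916) did not pass. Il6 averaged 5.30 ± 0.59 in exposed and 2.86 ± 0.42 in unexposed mice (SD, n = 5 each), with a difference of 2.44 (SE 0.28, limma adjusted p = 0.000304). Saa3 averaged 9.18 ± 0.28 in exposed and 6.07 ± 1.14 in unexposed mice, and Il1r1 averaged 9.25 ± 0.19 in exposed and 8.31 ± 0.07 in unexposed mice. The signal transducer Stat3 rose by 0.33, a call lost in 8 of the 10 fits that leave out 1 mouse (adjusted p 0.0322 to 0.0833). Their part in the P450 values was not tested.

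Of the 6 probe sets that name a P450 gene together with other genes, 1 passed: that naming Klkb1 and Cyp4v3 differed by -0.99 (SE 0.18, limma adjusted p = 0.00515), and which of the pair it reports cannot be told.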
